A study of Mus musculus with 3 samples.

Results

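The genes described here are 9 modulators of Notch signalling other than its canonical ligands and receptors: *Lfng*, *Mfng*, *Rfng*, *Dlk1*, *Rbpj*, *Nrarp*, *Hey2*, *Adam10* and *Numb*. They were chosen by name, and all 9 were among the 55422 genes of the deposited count tables and passed the filter on low counts. Their counts of unique molecular identifiers (UMIs, tags that mark captured RNA molecules) were followed in 3 droplet single-cell libraries from long bones of untreated male mice aged 3 weeks on the C57BL/6 background (C57BL/6J for wild-type animals in the study's methods). Metaphyseal replicates 1 and 2 came from wild-type animals, whose cells were depleted of haematopoietic lineages, CD45+ cells and CD117+ cells with magnetic beads. The *Pdgfra-GFP* library held cells sorted from heterozygous *Pdgfra-H2B-GFP* mice, in which nuclear GFP is driven from a single *Pdgfra* allele, a gate meant for cells in which this promoter is or was recently active. Cells of other kinds were found in this library too, among them 73 macrophage-like, 73 erythroid-like and 60 arterial EC-like cells. The study's text places the dissection of the sorted cells in the metaphysis and epiphysis in its results and in the metaphysis in its methods. How many animals went into each library is not given in the sources used here. The p-values rest on how differences between populations vary from library to library, with a spread per gene estimated over all populations. This spread may be technical as well as biological.

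Notch receptors are cleaved when a ligand on a neighbouring cell pulls on them, and the freed intracellular domain joins the DNA-binding protein RBPJ to switch on target genes. The modulators act around this core. Fringe enzymes (*Lfng*, *Mfng*, *Rfng*) add a sugar to the receptor that changes which ligands it answers to, the metalloprotease ADAM10 makes the first cut after ligand binding, NUMB is an adaptor that promotes removal of the receptor from the surface, DLK1 is a ligand-like membrane protein that lacks the domain needed to activate receptors, and *Nrarp* and *Hey2* are target genes whose products respectively limit the intracellular domain and repress transcription. In growing bone, Notch ligands on vessel endothelium act on neighbouring endothelial cells and on perivascular stroma.

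Populations were gated cell by cell from marker lists that hold none of the 9 genes, and are called SC-like (septoclast markers such as *Fabp5*, *Mmp9* and *Sstr2*), mpMSC-like and dpMSC-like (metaphyseal and diaphyseal mesenchymal stromal cells), OB-like (osteoblasts), EC-like (endothelial cells) and so on. Every gated population carried its own markers, which follows from the gating and is no separate check of it. After filtering, 2389, 2011 and 11319 cells remained (metaphyseal replicate 1, metaphyseal replicate 2, *Pdgfra-GFP* library), with 16617684 to 76054094 UMIs per library. SC-like cells numbered 13, 12 and 208, mpMSC-like cells 28, 27 and 858, and mural-like cells 19, 18 and 60, so the stromal sums of the metaphyseal libraries are shallow. Libraries shared 0, 9 and 10 cell barcodes, against 0.707, 3.98 and 3.35 expected if barcodes are drawn from the whitelist at random, and these cells were kept. A level is given as the UMIs of a gene scaled to 1000000 UMIs of the summed cells of a population in a library (CPM), in the order metaphyseal replicate 1, metaphyseal replicate 2, *Pdgfra-GFP* library, and levels are compared between populations, not between genes.

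All 9 genes are annotated as protein coding in GRCm38 (mm10). *Lfng* is at chromosome 5, 140607320 to 140615545 on the plus strand, *Hey2* at chromosome 10, 30832359 to 30842801 on the minus strand, and the single-exon gene *Nrarp* at chromosome 2, 25180758 to 25183339 on the plus strand. *Dlk1* is at chromosome 12, 109452823 to 109463336 on the plus strand, *Rbpj* at chromosome 5, 53466152 to 53657362 on the plus strand, and *Adam10* at chromosome 9, 70678997 to 70780229 on the plus strand. Processed copies of *Rbpj* could take some of its reads, and the annotated copy *Rbpj-ps3* held 7, 4 and 4 UMIs beside 846, 890 and 2010 UMIs of *Rbpj*.

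Because *Hey2* and *Nrarp* are known targets of the RBPJ complex and *Lfng* is regulated by Notch in other tissues, the 220 bases from 250 to 31 bases before their RefSeq start sites (GRCm38.p6, written 5′ to 3′ on the strand of the gene) are shown, with matches to the RBPJ core TGGGAA or the longer form CGTGGGAA, on either strand, in capitals. The windows are chr5:140607091-140607310 (plus strand) for *Lfng*, chr10:30842814-30843033 (minus strand) for *Hey2* and chr2:25180508-25180727 (plus strand) for *Nrarp*.
Lfng: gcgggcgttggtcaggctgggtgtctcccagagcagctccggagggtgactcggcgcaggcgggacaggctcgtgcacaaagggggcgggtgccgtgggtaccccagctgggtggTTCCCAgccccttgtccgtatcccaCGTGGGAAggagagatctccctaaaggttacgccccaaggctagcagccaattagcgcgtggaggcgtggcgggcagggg
Hey2: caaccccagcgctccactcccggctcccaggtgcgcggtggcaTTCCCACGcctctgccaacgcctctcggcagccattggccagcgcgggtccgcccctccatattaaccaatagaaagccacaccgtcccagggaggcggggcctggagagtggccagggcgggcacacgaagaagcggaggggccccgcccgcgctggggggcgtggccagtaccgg
Nrarp: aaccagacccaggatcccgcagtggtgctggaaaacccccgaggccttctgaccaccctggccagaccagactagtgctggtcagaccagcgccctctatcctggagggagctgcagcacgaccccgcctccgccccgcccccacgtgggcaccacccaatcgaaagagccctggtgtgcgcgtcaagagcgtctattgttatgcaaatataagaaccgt
The windows of *Lfng* and *Hey2* each held 1 match to the longer form, which contains the core, and *Lfng* held a further core match. Of all 32851 promoter windows of this length, 0.591% held the longer form and 19.4% the core. The *Nrarp* window held neither string, which says only that these letters are not in this window. Among the other promoters matched, *Rbpj* held the core in its overlapping pair of windows, which share a match, and *Rfng*, *Dlk1*, *Adam10* and *Numb* held neither string. A match is a string of letters and was not tested as a binding site.

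*Lfng* divided the bone stroma. Its levels were 50.6, 54.7 and 59.9 CPM in dpMSC-like cells and 21.5, 22.4 and 30.2 CPM in mpMSC-like cells. In OB-like cells they were 0.929, 0.809 and 1.95 CPM, and in chondrocyte-like cells 0, 0 and 2.38 CPM. The 3 libraries of dpMSC-like cells therefore lay above those of every other stromal population, and those of OB-like and chondrocyte-like cells lay below all mpMSC-like and dpMSC-like values. SC-like cells held 0, 8.85 and 15.8 CPM, each below the mpMSC-like level of the same library. Near-empty droplets (barcodes with at most 100 UMIs) held 30.7, 36.1 and 17.6 CPM. Among vessels the sinusoidal EC-like cells held most *Lfng*, with 78.0, 89.4 and 60.2 CPM, followed by capillary EC-like cells with 56.1, 57.1 and 43.7 CPM and arterial EC-like cells with 23.3, 55.6 and 23.3 CPM. In the *Pdgfra-GFP* library, the only one with enough of these cells, osteoclast-like and macrophage-like cells held 67.4 and 51.9 CPM. By the mean over libraries, sinusoidal EC-like cells (75.9 ± 14.7 CPM, SD, n = 3) stood first among populations measured in every library, and dpMSC-like (55.1 ± 4.64 CPM), capillary EC-like (52.3 ± 7.45 CPM) and other EC-like cells (51.1 ± 15.4 CPM) did not differ from each other beyond their spread.

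*Mfng* was an endothelial gene in these libraries. Its levels were 109, 111 and 181 CPM in arterial, 131, 115 and 167 CPM in capillary and 109, 99.5 and 109.9 CPM in sinusoidal EC-like cells. B lineage-like cells held 42.0, 35.2 and 32.8 CPM, and macrophage-like cells of the sorted library 27.0 CPM. The libraries of each endothelial population lay above those of every non-endothelial population. SC-like, mpMSC-like and mural-like cells held 0 UMIs of *Mfng* in every library, while near-empty droplets of the metaphyseal libraries (barcodes with at most 100 UMIs) held 56.3 and 42.5 CPM. Over all mpMSC-like cells, 0 among 6252631 UMIs allows a level of up to 0.480 CPM (3 UMIs). The third fringe gene, *Rfng*, was spread widely: dpMSC-like cells held 28.8, 28.4 and 39.5 CPM, mpMSC-like cells 24.6, 15 and 29.7 CPM, OB-like cells 17.0, 16.4 and 18.4 CPM, and sinusoidal EC-like cells 9.27, 10.1 and 5.23 CPM. The dpMSC-like (32.2 ± 6.28 CPM) and mpMSC-like means (23.1 ± 7.48 CPM, SD, n = 3) stood next to each other in the order and their ranges overlapped. Paired within libraries, the dpMSC-like level was the higher in 3 of 3.

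**Figure D1:**
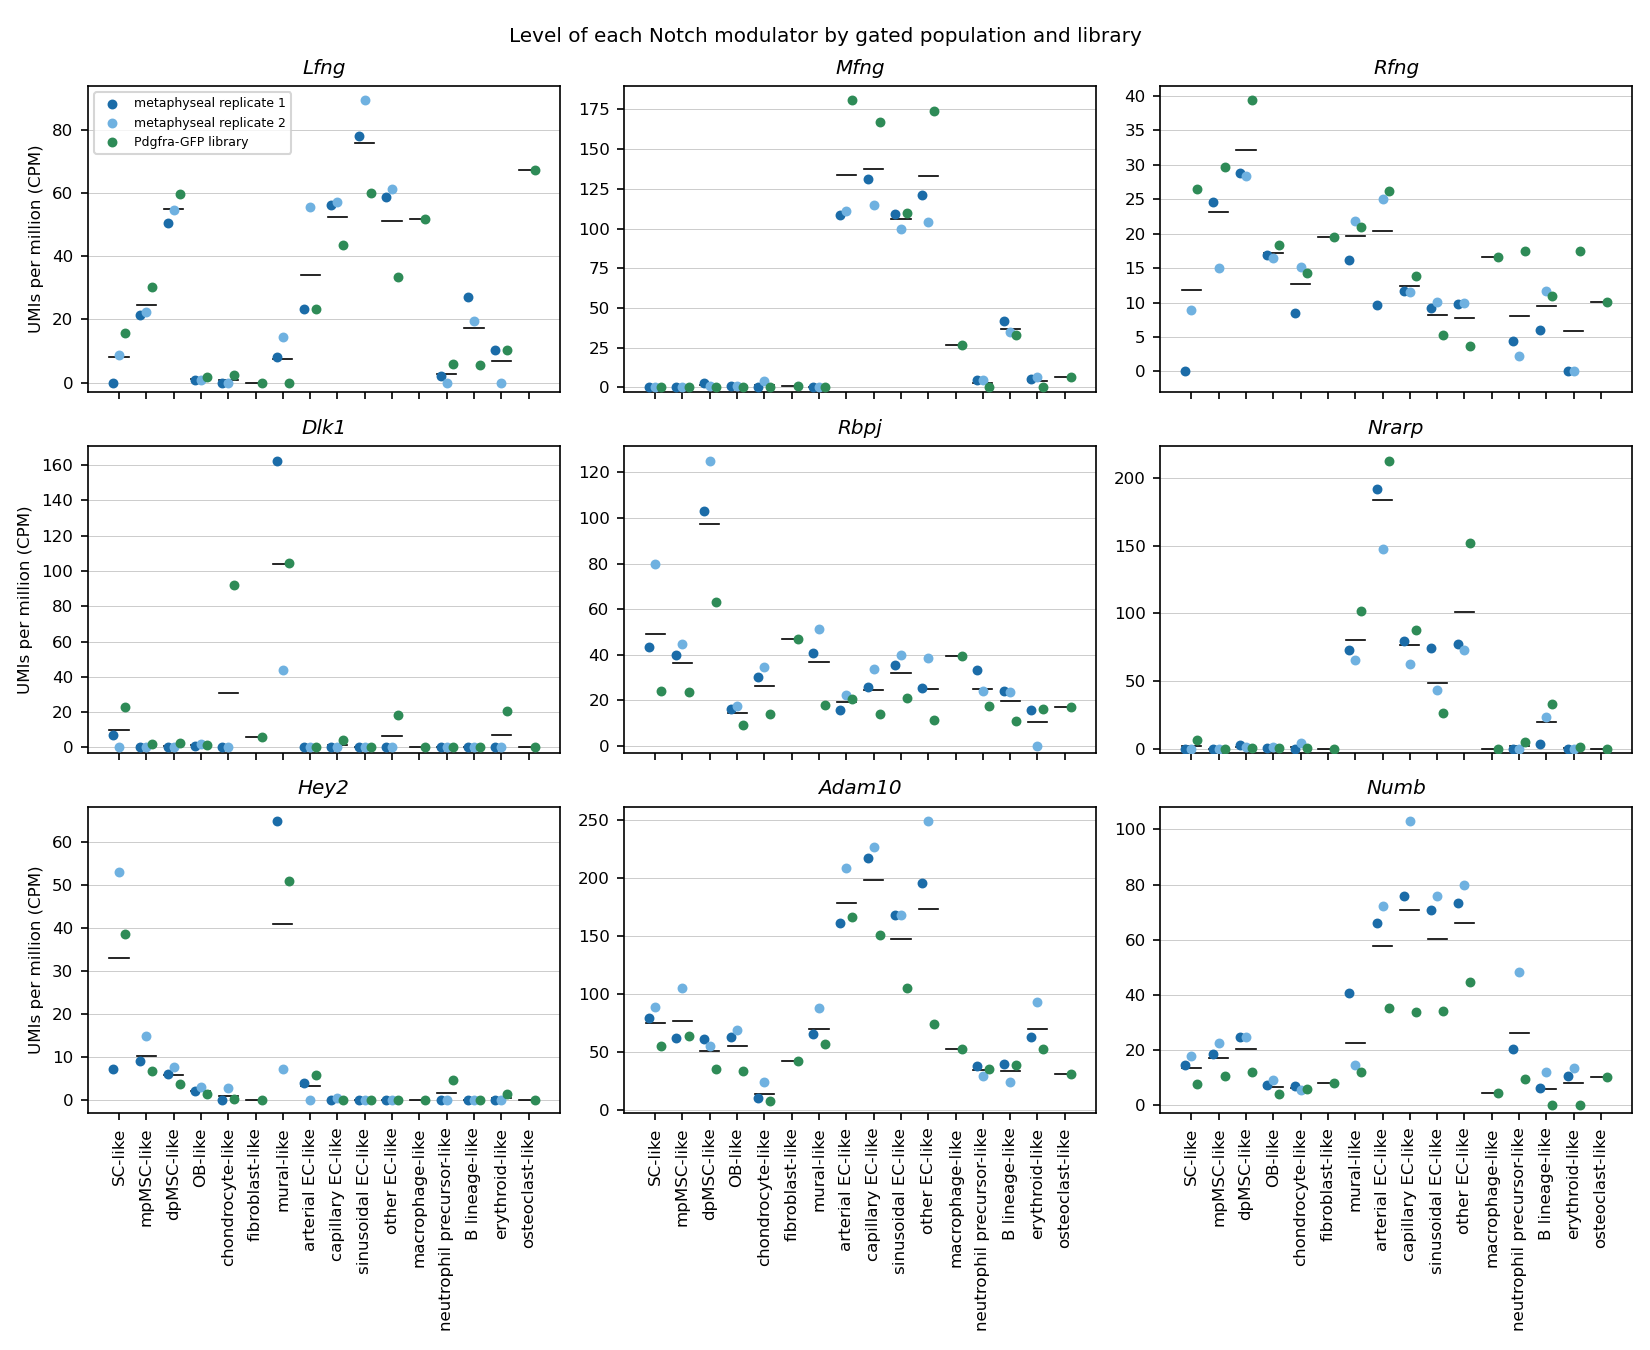
Level of each of the 9 Notch modulators in CPM (vertical axes, a separate scale for each gene) by gated population; each point is a library and each black line the mean over its libraries. *Mfng* is at 0 in SC-like, mpMSC-like and mural-like cells of every library and between 99.5 and 181 CPM in the arterial, capillary and sinusoidal EC-like cells, whereas *Rbpj* peaks in dpMSC-like cells.

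*Adam10*, which encodes the protease of the ligand-dependent cut, was found in every population. Capillary EC-like cells held 217, 226 and 151 CPM and arterial EC-like cells 161, 209 and 166 CPM. In the stroma, SC-like cells held 79.4, 88.5 and 55.2 CPM, mpMSC-like cells 61.5, 105 and 63.6 CPM, and dpMSC-like cells 61.0, 55 and 35 CPM. Near-empty droplets held 108, 133 and 27.4 CPM, above these stromal levels in both metaphyseal libraries and below them in the *Pdgfra-GFP* library. Chondrocyte-like cells were lowest, with 10.1, 23.5 and 7.45 CPM (mean 13.7 ± 8.61 CPM, SD, n = 3). The capillary, arterial, other and sinusoidal EC-like means, 198 ± 41.0, 179 ± 26.1, 173 ± 89.7 and 147 ± 36.7 CPM, overlapped in their spread, as did those of mpMSC-like (76.6 ± 24.4 CPM) and SC-like cells (74.3 ± 17.2 CPM).

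*Numb*, whose product counteracts Notch receptors at the membrane, was likewise highest in vessels: 75.9, 103 and 33.8 CPM in capillary, 70.7, 75.8 and 34.0 CPM in sinusoidal and 66.0, 72.3 and 35 CPM in arterial EC-like cells. dpMSC-like cells held 24.5, 24.7 and 11.8 CPM, mpMSC-like cells 18.4, 22.4 and 10.6 CPM, and SC-like cells 14.4, 17.7 and 7.63 CPM. Near-empty droplets held 37.2, 37.4 and 6.47 CPM, above these stromal levels in both metaphyseal libraries and below them in the *Pdgfra-GFP* library. In each library the endothelial level was above the level in these 3 stromal populations. The 4 endothelial means differed by less than the spread between libraries.

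*Rbpj*, the DNA-binding effector of the pathway, had its highest level in dpMSC-like cells, with 103, 125 and 63.1 CPM. This was the top population within each library. SC-like cells held 43.3, 79.7 and 24.1 CPM, mpMSC-like cells 40.0, 44.9 and 23.7 CPM, mural-like cells 40.6, 51.1 and 18.0 CPM and OB-like cells 16.3, 17.3 and 9.23 CPM. Near-empty droplets held 37.7, 35.2 and 22.6 CPM. The SC-like, mural-like and mpMSC-like means, 49.0 ± 28.2, 36.6 ± 16.9 and 36.2 ± 11.1 CPM, lay within each other's spread. Paired within libraries, the SC-like level was above the mpMSC-like level in 3 of 3.

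*Nrarp*, a feedback inhibitor induced by Notch in many cell types, marked vessels and mural cells. Arterial EC-like cells held 192, 147 and 213 CPM, capillary EC-like cells 79.5, 62.3 and 87.4 CPM, and sinusoidal EC-like cells 74.6, 43.6 and 26.2 CPM. Mural-like cells, which are defined by *Rgs5*, *Acta2* and other genes of pericytes and smooth muscle, held 73.1, 65.7 and 102 CPM. Arterial levels lay above all capillary, sinusoidal and mural-like levels, whereas the mural-like (80.2 ± 19.1 CPM) and capillary means (76.4 ± 12.9 CPM, SD, n = 3) did not differ beyond their spread. B lineage-like cells held 3.00, 23.4 and 32.8 CPM. In stroma the gene was almost absent from the counts: mpMSC-like cells held 0 UMIs in every library and dpMSC-like cells 2.50, 1.22 and 0.121 CPM. SC-like cells held 0, 0 and 6.46 CPM, the last from 11 UMIs in 11 of 208 cells, and near-empty droplets of that library held 2.56 CPM.

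*Hey2*, a transcriptional repressor of the Hey family, was found in mural-like and SC-like cells and was at few or 0 UMIs in endothelium. Its levels were 65.0, 7.30 and 50.9 CPM in mural-like cells, from 8, 1 and 17 UMIs, and 7.21, 53.1 and 38.7 CPM in SC-like cells, from 1, 6 and 66 UMIs. mpMSC-like cells held 9.22, 15 and 6.89 CPM, dpMSC-like cells 6.13, 7.82 and 3.69 CPM and OB-like cells 2.09, 2.97 and 1.52 CPM. Metaphyseal replicate 1 was low in SC-like cells and metaphyseal replicate 2 was low in mural-like cells, each on a single UMI. Arterial EC-like cells held 3.88, 0 and 5.83 CPM, from 2, 0 and 2 UMIs, sinusoidal EC-like cells held 0 UMIs in every library, and capillary EC-like cells 1 UMI in all. Near-empty droplets held 3.26, 3.20 and 3.61 CPM. The mural-like (41.1 ± 30.1 CPM) and SC-like means (33.0 ± 23.5 CPM) overlapped.

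*Dlk1*, which encodes a ligand-like protein made by many immature mesenchymal cells, was highest in mural-like cells, with 163, 43.8 and 105 CPM from 20, 6 and 35 UMIs. SC-like cells held 7.21, 0 and 22.9 CPM and mpMSC-like cells 0, 0 and 1.94 CPM. Near-empty droplets held 0.931, 0.457 and 15.2 CPM (exact 95% Poisson interval 12.4 to 18.5 CPM in the *Pdgfra-GFP* library), beside the 22.9 CPM of SC-like cells in that library. Arterial and sinusoidal EC-like cells held 0 UMIs in every library. The erythroid-like level of 20.5 CPM in the sorted library came from 14 UMIs in 2 cells, 12 of them in 1 cell.

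The clearest split between libraries was *Dlk1* in chondrocyte-like cells. The 38 and 36 chondrocyte-like cells of the metaphyseal libraries held 0 UMIs, which allows up to 5.05 and 4.15 CPM, whereas the 1793 cells of the *Pdgfra-GFP* library held 1436 UMIs, or 92.2 CPM (exact 95% Poisson interval 87.5 to 97.1). These UMIs lay in 279 cells (15.6%, exact binomial interval 13.9 to 17.3%), with up to 79 in a cell, and in 8.61% of cells after each was thinned to 2000 UMIs. In dpMSC-like cells of the same library 0.663% of cells had a *Dlk1* UMI at a median of 3607 UMIs per cell, against 8364 in chondrocyte-like cells. The chondrocyte-like gates also differed in cartilage zone genes, which were picked after their values had been seen: *Col10a1*, the collagen of hypertrophic cartilage, was at 13178 and 13034 CPM in the metaphyseal libraries and 1232 CPM in the sorted one, and *Prg4*, which encodes lubricin of the articular surface, was at 37.0, 40.1 and 1342 CPM, with all 22 and 29 UMIs of the metaphyseal libraries in 1 cell each. *Ihh*, a prehypertrophic signal, was at 103, 133 and 114 CPM, and *Ucma*, of immature growth plate cartilage, was at 1717, 1718 and 3221 CPM. Within the sorted library, *Prg4* was at 4592 CPM in chondrocyte-like cells with a *Dlk1* UMI and 819 CPM in those without, *Col10a1* was at 69.5 and 1419 CPM, *Ihh* at 33.4 and 126 CPM, and *Ucma* at 3129 and 3236 CPM. These are sums from 1 library and carry no test. The sort, the dissection and the genotype of this library cannot be told apart here.

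**Figure D2:**
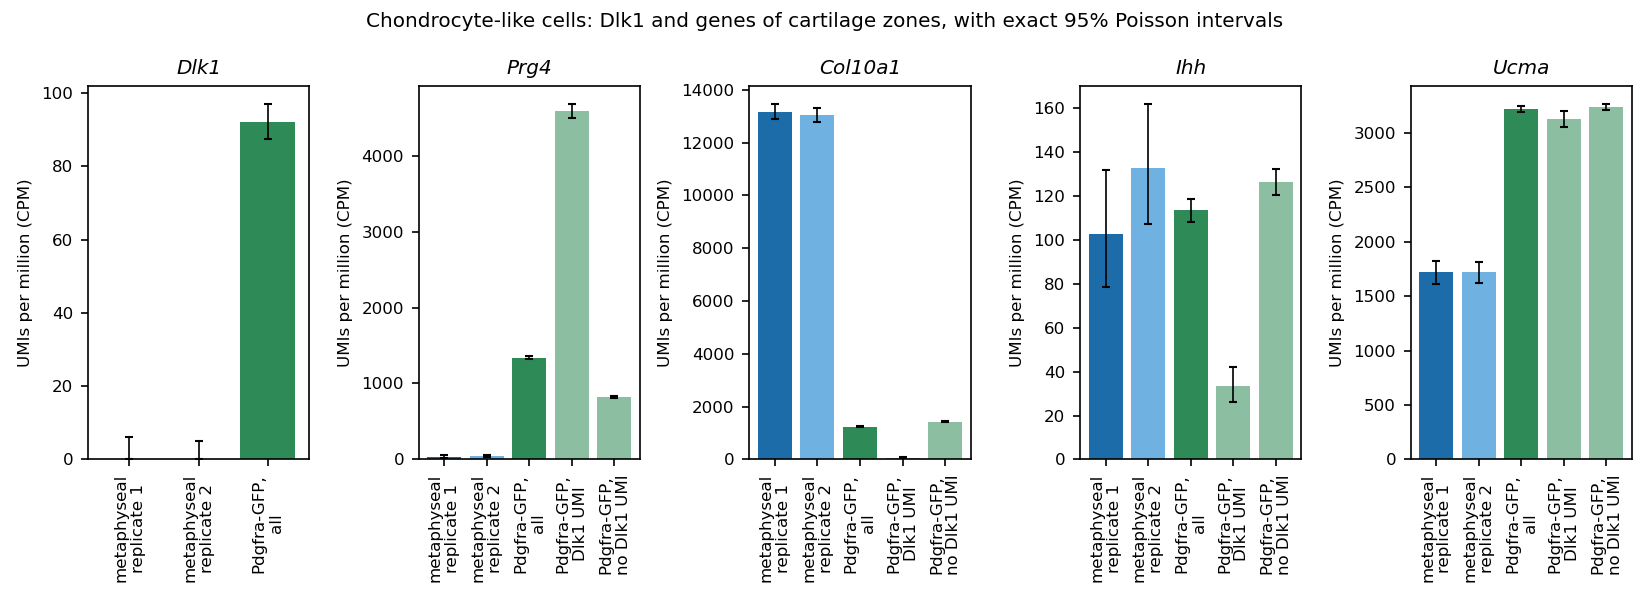
Summed levels in CPM (vertical axes from 0, a separate scale for each gene) in chondrocyte-like cells of the 3 libraries, and in *Pdgfra-GFP* chondrocyte-like cells with and without a *Dlk1* UMI; error bars are exact 95% Poisson intervals, which cover counting error only. *Dlk1* is at 0 in both metaphyseal libraries and at 92.2 CPM in the sorted one, and *Prg4* is at 4592 CPM in cells with *Dlk1* and 819 CPM in cells without.

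To ask whether the modulators differ between septoclast-like cells and the metaphyseal stroma, summed counts of SC-like and mpMSC-like cells were compared with edgeR's quasi-likelihood test and Benjamini-Hochberg adjustment over all 12725 genes, with the library as a block. *Hey2* was higher in SC-like cells, with a log2 fold change of 2.02 (SE 0.58, adjusted p = 0.0329), and lay above the mpMSC-like level in 2 of 3 libraries. *Nrarp* passed the threshold as well (adjusted p = 0.0421), and since mpMSC-like cells held 0 UMIs, its pooled SC-like level of 5.63 CPM was at least 11.7-fold higher than the floor of 3 UMIs over all mpMSC-like cells. All *Nrarp* UMIs came from the *Pdgfra-GFP* library. Thus 2 of 9 members were called, where 6.15% of all genes were, and both were higher. Of the others, *Dlk1* had a log2 fold change of 3.52 (SE 1.07, adjusted p = 0.0516) and *Lfng* of -1.09 (SE 0.43, adjusted p = 0.166), with *Lfng* lower in 3 of 3 libraries. *Rfng*, *Rbpj*, *Adam10* and *Numb* had log2 fold changes between -0.50 and 0.11 and adjusted p from 0.68 to 0.948, and *Mfng* gives no comparison because both populations held 0 UMIs. The median over the 8 members above the floor was -0.04, against -0.07 over all genes.

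In the *Pdgfra-GFP* library, 44 of 208 SC-like cells (21.2%, exact binomial interval 15.8 to 27.3%) had a *Hey2* UMI, against 36 of 858 mpMSC-like cells (4.20%, 2.96 to 5.76%) and 3 of 1793 chondrocyte-like cells (0.167%), whose median depth of 8364 UMIs was close to the 8080 of SC-like cells. After thinning to 2000 UMIs the shares were 5.47, 1.92 and 0.0559%. These intervals cover the counting of cells within this library and not the spread between libraries. In metaphyseal replicate 1, 1 of 13 SC-like and 3 of 28 mpMSC-like cells had a *Hey2* UMI. In metaphyseal replicate 2 these were 4 of 12 and 3 of 27 cells. Genes of mural cells, where *Hey2*, *Nrarp* and *Dlk1* were high, were also raised in SC-like sums: the 6 mural markers summed to 729, 177 and 456 CPM in SC-like cells, 194, 105 and 209 CPM in mpMSC-like cells, and 16334 to 20212 CPM in mural-like cells. Of the 6, 4, 3 and 5 had a UMI in SC-like cells, and *Higd1b* was at 0 in all 3 sums. With SC-like cells that held a UMI of *Rgs5*, *Myh11* or *Higd1b* left out, the log2 fold change of *Hey2* was 1.90 (adjusted p = 0.0487, edgeR's quasi-likelihood test), the adjusted p of *Nrarp* was 0.0632, and the log2 fold change of *Dlk1* was 3.17 (adjusted p = 0.129). This kept 11, 12 and 185 SC-like cells. In metaphyseal replicate 2 these markers were at 0 and no cell was left out. Cells with UMIs of only the other mural markers stayed in, so not every cell with a mural marker UMI was left out. Those other markers, *Acta2*, *Kcnj8* and *Abcc9*, also had UMIs in every mpMSC-like sum. In turn, SC markers summed to 2015, 1811 and 2327 CPM in mural-like cells and 397, 228 and 316 CPM in mpMSC-like cells. Whether mural marker UMIs in SC-like cells came from mural cells was not tested. Neither call of the full comparison held when a library was left out: *Hey2* had adjusted p of 0.104, 0.08 and 0.816 without metaphyseal replicate 1, metaphyseal replicate 2 and the *Pdgfra-GFP* library in the same edgeR fit, *Nrarp* had 0.103 and 0.0927 without either metaphyseal replicate, and both populations were at 0 for *Nrarp* without the *Pdgfra-GFP* library. DESeq2 gave adjusted p of 0.218 for *Hey2* and 0.104 for *Nrarp*.

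**Figure D3:**
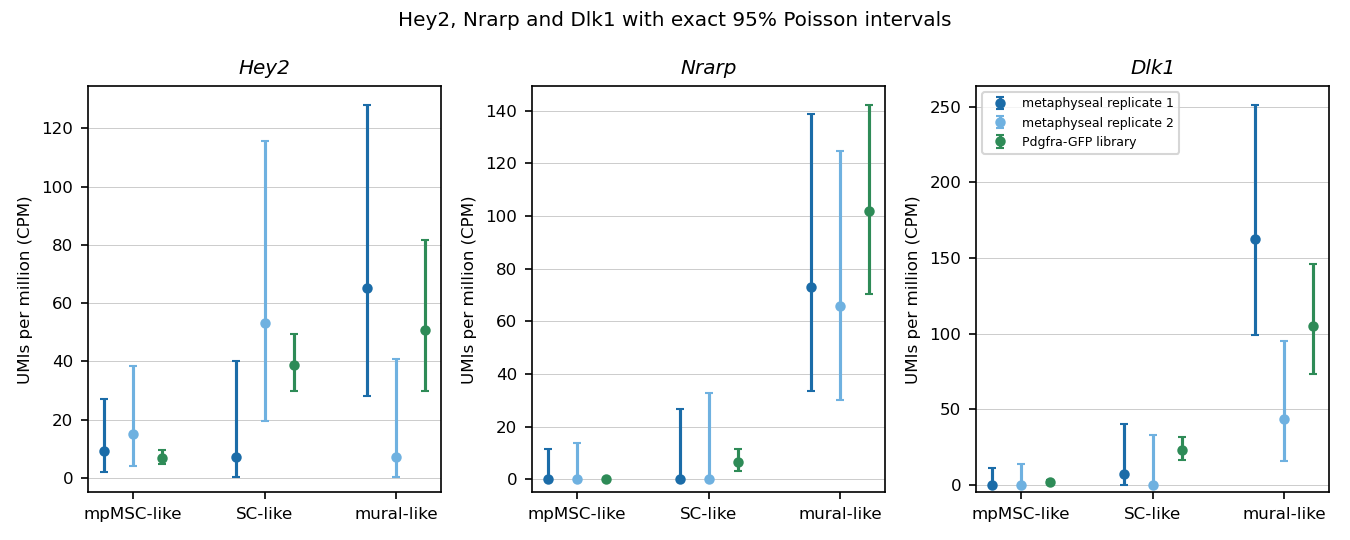
*Hey2*, *Nrarp* and *Dlk1* in mpMSC-like, SC-like and mural-like cells, in CPM (vertical axes) for each library with exact 95% Poisson intervals, which cover counting error only. *Nrarp* is at 0 in all mpMSC-like sums and between 65.7 and 102 CPM in mural-like cells, while the SC-like *Hey2* levels of 7.21, 53.1 and 38.7 CPM carry wide intervals in the metaphyseal libraries.

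In dpMSC-like against mpMSC-like cells, *Rbpj* and *Lfng* were higher and *Adam10* was lower. The same edgeR fit gave log2 fold changes of 1.40 for *Rbpj* (SE 0.19, adjusted p = 9.4e-07), 1.11 for *Lfng* (SE 0.29, adjusted p = 0.0040) and -0.68 for *Adam10* (SE 0.18, adjusted p = 0.0047), and each held its direction in 3 of 3 libraries. These 3 of 9 members compare with 23.8% of all genes called. *Mfng* and *Nrarp* were detected in dpMSC-like cells at pooled levels of 0.959 and 0.719 CPM, 2.0-fold and 1.5-fold the mpMSC-like floor. Neither passed in this edgeR test (adjusted p of 0.0738 and 0.245). EC markers summed to 94.8, 45.7 and 13.7 CPM in dpMSC-like cells and 18.4, 18.7 and 4.42 CPM in mpMSC-like cells. Near-empty droplets held *Mfng* at 56.3, 42.5 and 3.46 CPM and *Nrarp* at 31.6, 29.7 and 2.56 CPM. Whether these dpMSC-like UMIs came from other cells was not tested. *Rfng* (log2 fold change 0.45), *Hey2* (-0.65) and *Numb* (0.18) did not pass. *Dlk1* had 37 UMIs in dpMSC-like and 11 in mpMSC-like cells, too few per library for a stable estimate. The median over the members was 0.45, against 0.09 over all genes. *Rbpj* kept its call without any 1 library. *Lfng* had adjusted p of 0.127 and 0.1 without metaphyseal replicates 1 and 2, and *Adam10* had 0.0882, 0.187 and 0.196 without metaphyseal replicate 1, replicate 2 and the *Pdgfra-GFP* library (edgeR).

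In OB-like against mpMSC-like cells, *Lfng* was lower, with a log2 fold change of -3.23 (SE 0.36, adjusted p = 3.4e-08, edgeR), as was *Rbpj* with -0.53 (SE 0.20, adjusted p = 0.0444), both in 3 of 3 libraries. These were the 2 of 9 members called, beside 30.2% of all genes. *Hey2* (-1.25, adjusted p = 0.108), *Numb* (-0.62, adjusted p = 0.134), *Rfng* (0.36), *Adam10* (0.22) and *Dlk1* (1.08) did not pass in this edgeR test, and *Mfng* and *Nrarp*, at pooled levels of 0.379 and 0.275 CPM, were under the level that 0 mpMSC-like UMIs allow. The CPM of *Rfng* and *Adam10* were lower in OB-like cells in 2 of 3 libraries, against the sign of their fitted values. The fit rescales the sums (TMM) and CPM does not, so these directions are not settled. The fitted median was 0.22 and, with *Mfng* and *Nrarp* set at their bounds, -0.53, against 0.02 over all genes. *Rbpj* lost its call without any 1 library, with adjusted p of 0.38, 0.216 and 0.152 (edgeR), whereas *Lfng* kept it. Over all genes 2090 were higher and 1759 lower, and with DESeq2 size factors 1704 and 2147.

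In chondrocyte-like against mpMSC-like cells, *Lfng* (log2 fold change -3.25, SE 0.40, adjusted p = 1.2e-07, edgeR), *Adam10* (-2.30, SE 0.22, adjusted p = 1.0e-09) and *Hey2* (-3.94, SE 0.84, adjusted p = 0.00050) were lower in 3 of 3 libraries, and *Dlk1* was higher (5.67, SE 0.86, adjusted p = 1.3e-05). These are 4 of 9 members, beside 30.8% of all genes. The *Dlk1* call rests on the *Pdgfra-GFP* library, since both populations held 0 UMIs in the metaphyseal ones, and DESeq2 gave an adjusted p of 0.534. *Rbpj* (-0.16), *Rfng* (-0.50) and *Numb* (-0.60) did not pass, and *Mfng* and *Nrarp*, at pooled levels of 0.474 and 0.296 CPM, were within what 0 mpMSC-like UMIs allow. The median was -0.50, or -0.60 with these genes at their bounds, against 0.05 over all genes. Without the *Pdgfra-GFP* library the adjusted p of *Hey2* was 0.229 (edgeR), from 2 UMIs in chondrocyte-like and 7 in mpMSC-like cells.

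Mural-like cells were higher than mpMSC-like cells in both target genes and in *Dlk1*. *Nrarp* had a pooled level of 87.6 CPM, at least 182-fold above the mpMSC-like floor (adjusted p = 2.7e-07, edgeR), in 3 of 3 libraries. *Dlk1* was higher by a log2 fold change of 6.55 (SE 0.99, adjusted p = 3.9e-05) in 3 of 3 libraries, and *Hey2* by 2.20 (SE 0.64, adjusted p = 0.0216) in 2 of 3. *Lfng* was lower (log2 fold change -2.51, SE 0.80, adjusted p = 0.0363), with 3 UMIs in all mural-like cells, a pooled ratio of 0.172 relative to mpMSC-like cells (exact 95% counting interval 0.0351 to 0.51). With 4 of 9 members called the share of all genes was 12.0%. *Rfng* (-0.46), *Rbpj* (-0.24), *Adam10* (-0.30) and *Numb* (0.12) did not pass, and *Mfng* was at 0 in both populations. The median over the 8 members above the floor was -0.06, against -0.17 over all genes. *Hey2* had adjusted p of 0.207 without metaphyseal replicate 1 and 0.512 without the *Pdgfra-GFP* library, and *Lfng* had 0.157, 0.0554 and 0.549 without metaphyseal replicate 1, replicate 2 and the *Pdgfra-GFP* library (edgeR). DESeq2 did not call *Dlk1* (adjusted p = 0.265) or *Lfng* (adjusted p = 0.0605). EC markers summed to 284, 226 and 135 CPM in mural-like cells and 18.4, 18.7 and 4.42 CPM in mpMSC-like cells. Of the 5 EC markers, 3, 4 and 2 had a UMI in mural-like cells and 3, 4 and 5 in mpMSC-like cells. In mural-like cells *Pecam1* and *Cdh5* were at 0 in metaphyseal replicate 1 and *Kdr* in replicate 2. All of these were at 0 in the *Pdgfra-GFP* library. *Mfng* was at 0 in all of these sums, which for shallow mural-like sums sets only an upper bound on its level. Whether EC marker UMIs in mural-like cells came from endothelial cells was not tested.

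Endothelium differed from the metaphyseal stroma in most members. Arterial, capillary and sinusoidal sums of the metaphyseal libraries were averaged with equal weight and set against mpMSC-like sums in a model that estimates the mpMSC-like level from all 3 libraries, and 7 of 9 members were called by edgeR, where 37.6% of all genes were. Within the metaphyseal libraries, *Mfng* and *Nrarp*, at pooled levels of 114 and 74.7 CPM, were at least 22.5-fold and 14.8-fold above the floor of 3 UMIs over their mpMSC-like cells (fitted over all libraries, adjusted p = 1.3e-10 and 6.8e-09, edgeR). *Numb* (log2 fold change 1.87, SE 0.28, adjusted p = 2.4e-06), *Lfng* (1.32, SE 0.32, adjusted p = 0.0012) and *Adam10* (1.12, SE 0.17, adjusted p = 2.8e-06) were higher as well. *Hey2* was lower, with 3 UMIs in the endothelial sums against 7 in mpMSC-like cells of the same libraries (log2 fold change -4.75, SE 0.91, adjusted p = 0.00011), and *Rbpj* was lower as well (-0.61, SE 0.22, adjusted p = 0.0284). The pooled ratio of *Hey2* levels in these libraries was 0.0233 (exact 95% counting interval 0.00389 to 0.102). All 7 held their direction in 2 of 2 libraries. *Rfng* (-0.68, SE 0.30, adjusted p = 0.076, edgeR) did not pass. *Dlk1* gives no comparison, because both populations held 0 UMIs in the metaphyseal libraries. The median over the 8 members above the floor was 1.22, against -0.0038 over all genes. Without metaphyseal replicate 2, *Lfng* had an adjusted p of 0.127, and *Rbpj* had 0.384, 0.0901 and 0.0925 without metaphyseal replicate 1, replicate 2 and the *Pdgfra-GFP* library (edgeR).

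Within endothelium no member passed the threshold between arterial and capillary cells, where 7.22% of all genes were called, nor between sinusoidal and capillary cells, where 8.82% were. DESeq2 called 0 members in either comparison, and 2 and 1 members respectively had an unadjusted p under 0.05 in edgeR. Among members above the floor the largest difference was *Nrarp* in arterial cells, at a log2 fold change of 1.20 (SE 0.39, adjusted p = 0.0592, edgeR) and higher in 2 of 2 libraries. Its adjusted p was 0.000289 without the *Pdgfra-GFP* library, whose stromal sums enter the estimate of spread, and 0.0146 with the EC-like sums of that library included (edgeR). *Lfng* had a log2 fold change of 0.60 (SE 0.27, adjusted p = 0.186, edgeR) in sinusoidal cells and was higher in 2 of 2 libraries, and *Adam10* of -0.35 (SE 0.18, adjusted p = 0.295). Without the *Pdgfra-GFP* library these adjusted p were 0.00577 and 0.0166 (edgeR). In that setting calls rose for all genes, with 1471 of 10226 called in arterial and 2559 in sinusoidal cells, against 919 and 1122 of 12725 in the main fit. Over the 7 members above the floor the medians were -0.33 and -0.23, against -0.13 and 0.0044 over all genes.

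**Figure D4:**
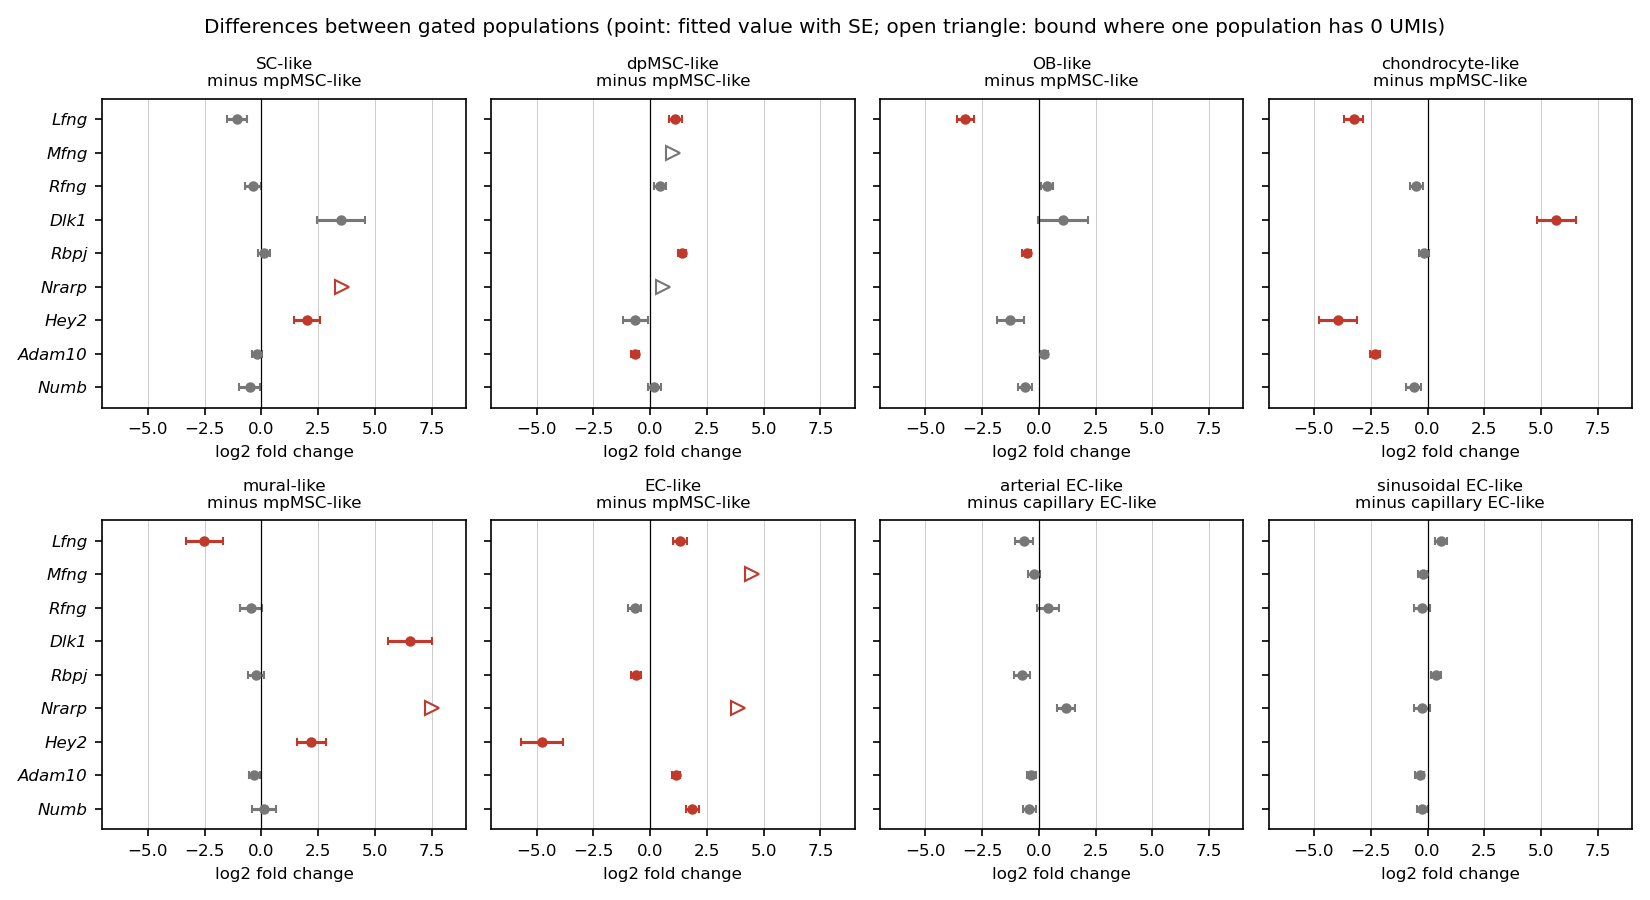
Log2 fold changes of the 9 members in the 8 comparisons (horizontal axes); points are fitted values with standard errors, open triangles the bound against 3 UMIs where a population held none, and red marks an adjusted p under 0.05 in edgeR's quasi-likelihood test. Bounds under 1-fold, comparisons at or under 3 UMIs in both populations, and *Dlk1* in dpMSC-like cells, which could not be estimated, are not drawn; *Nrarp* has its largest bound in mural-like cells, *Mfng* in EC-like cells, and no member is red within endothelium.

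The rest of the pathway was followed through 42 other genes listed for Notch processing, glycosylation, trafficking and transcription, of which 37 were tested. In SC-like against mpMSC-like cells 1 was called (2.7%, beside 6.15% of all genes), *Snw1*, a coactivator of the RBPJ complex, which was lower (log2 fold change -0.72, SE 0.18, adjusted p = 0.0102, edgeR) at 72.1, 133 and 110.4 CPM against 159.9, 157 and 175 CPM. In dpMSC-like cells 4 were higher and 2 lower (16.2%, beside 23.8% of all genes), among them the ubiquitin ligase gene *Dtx4* (1.64, SE 0.29, adjusted p = 8.6e-05) and *Ncstn*, a subunit of gamma-secretase (1.0, SE 0.21, adjusted p = 0.00040). In OB-like cells 6 were higher and 4 lower (27.0%, beside 30.2%), with *Pofut2*, a protein O-fucosyltransferase, at 1.55 (SE 0.23, adjusted p = 4.6e-06) and the coactivator gene *Maml2* at -1.68 (SE 0.36, adjusted p = 0.00045). No action of *Pofut2* on Notch was tested, and its RNA level is no reading of Notch glycosylation. In chondrocyte-like cells 8 were higher and 8 lower (43.2%, beside 30.8%). *Dlk2*, the relative of *Dlk1*, was at 11.8, 26.3 and 6.36 CPM there and at 0, 0 and 0.353 CPM in mpMSC-like cells, so unlike *Dlk1* it was found in chondrocyte-like cells of every library. In mural-like cells 2 were higher and 2 lower (10.8%, beside 12.0%), with *Dtx3* at 1.63 (SE 0.30, adjusted p = 0.00018) and *Fbxw7*, whose product marks the intracellular domain for degradation, at -2.0 (SE 0.54, adjusted p = 0.0104). *Fbxw7* rested on 4 mural-like UMIs, at 16.3, 0 and 5.99 CPM, against 120 mpMSC-like UMIs.

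In EC-like cells 11 of these genes were higher and 3 lower, a share of 37.8%, close to the 37.6% of all genes called. *Egfl7*, a secreted endothelial protein that can bind Notch, had a log2 fold change of 7.16 (SE 0.58, adjusted p = 1.4e-11, edgeR), and *Aph1b*, of gamma-secretase, one of -2.87 (SE 0.35, adjusted p = 5.1e-08). In arterial against capillary cells 0 were higher and 2 lower (5.41%, beside 7.22%), *Neurl1b*, of ligand endocytosis (-2.85, SE 0.75, adjusted p = 0.0141), and the coactivator gene *Maml3* (-1.50, SE 0.33, adjusted p = 0.0024). *Neurl1b* rested on 3 arterial UMIs, at 5.83 and 0 CPM, against 123 capillary UMIs, and *Maml3* on 20 against 314. In sinusoidal against capillary cells 3 were higher and 2 lower (13.5%, beside 8.82%), with the presenilin gene *Psen2* at 1.72 (SE 0.30, adjusted p = 0.00013), at 59.9 and 49.3 CPM against 17.4 and 16.7 CPM. The list's median log2 fold change lay between -0.28 and 0.18 in the 8 comparisons, beside -0.17 to 0.09 over all genes.

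Across the 42 sums of populations and libraries, the genes with the most similar pattern of log2(CPM + 1) were listed for each member out of 14826 genes, as a description, since sums share libraries and depth. *Mfng* was most like *Sigirr* (Pearson r = 0.950), *N4bp3* and *Ppp1r16b*. *Hey2* was most like *Ggt7* (0.917), *Rasl11a* and *Dzip1*. *Nrarp* was most like *Tie1* (0.893), *Mapk11* and *Emcn*, of which *Tie1* and *Emcn* were used to gate EC-like cells. *Numb* was nearest to *Dennd5a* (0.883), *Shoc2* and *Ppp1r12c*, *Adam10* to *BC028528* (0.854), *Lpar6* and *Adgrl2*, and *Rbpj* to *Lnpep* (0.849), *Zfp950* and *Dlg1*. For *Rfng* they were *Trim32* (0.824), *Pgm1* and *Scap*, for *Dlk1* *Thy1* (0.795), *Myl1* and *Ndufa4l2*, and for *Lfng* *Tor3a* (0.787), *Tap1* and *Gbp7*.

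Several members were set lower in the sorted library throughout. Among the 13 populations with sums in every library, *Numb* was below both metaphyseal libraries in 12, *Rbpj* in 11 and *Adam10* in 9, whereas *Rfng* and *Nrarp* were above both in 8 and *Dlk1* in 7. The *Pdgfra-GFP* library differs from the others in the sort, the genotype, the cells it holds, and possibly the dissection and the Chromium kit version. Its cells had a median of 5354 UMIs and 0.903% mitochondrial UMIs, against 6257 and 6458 UMIs and 3.71 and 3.80% in the metaphyseal libraries. Near-empty droplets differed as well. They held *Numb* at 37.2, 37.4 and 6.47 CPM, *Rbpj* at 37.7, 35.2 and 22.6 CPM and *Adam10* at 108, 133 and 27.4 CPM. *Nrarp*, at 31.6, 29.7 and 2.56 CPM, was also lower in those of the sorted library. *Rfng* (17.7, 20.1 and 21.2 CPM) and *Dlk1* (0.931, 0.457 and 15.2 CPM) were higher there. With 1 sorted library these differences cannot be told apart and were not tested.

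**Figure D5:**
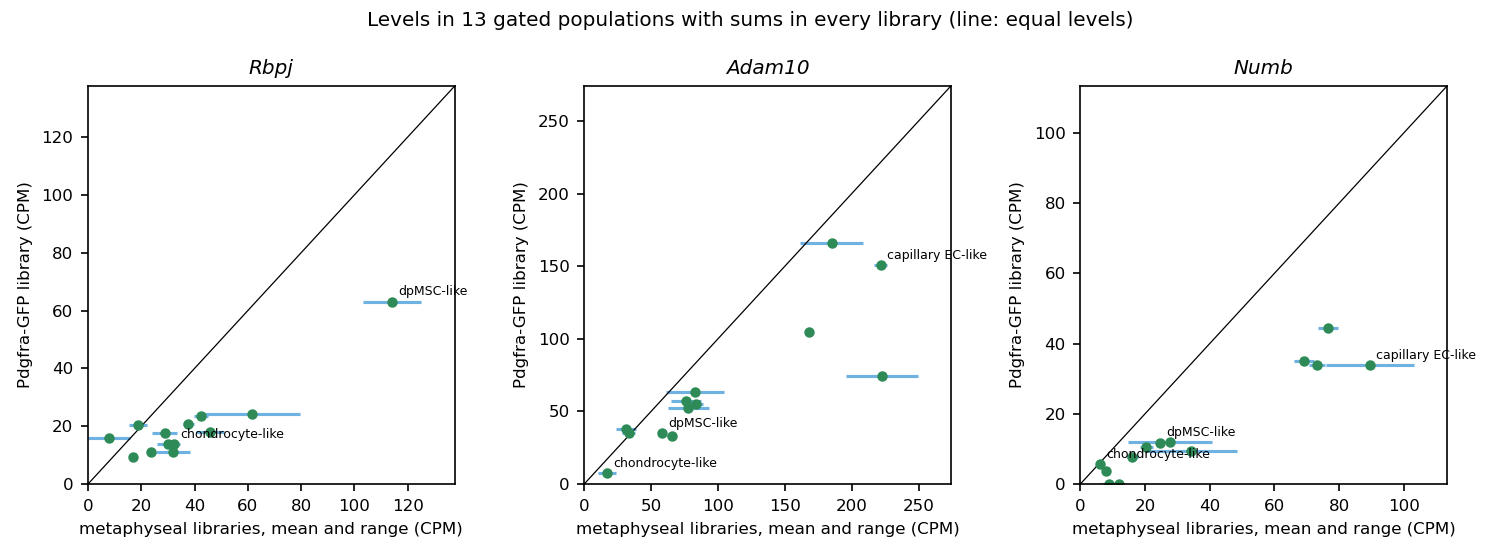
Levels of *Rbpj*, *Adam10* and *Numb* in the 13 gated populations measured in every library; the horizontal axis gives the mean and range of the 2 metaphyseal libraries and the vertical axis the *Pdgfra-GFP* library, both in CPM, and the line marks equal levels. Most populations lie under the line, with *Numb* below both metaphyseal libraries in 12 of 13.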

How the data were processed

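Droplet single-cell RNA libraries of 2 metaphyseal samples and 1 *Pdgfra-GFP* sorted sample were analysed. The authors trimmed reads with fastp 0.20, aligned them with STARsolo (STAR 2.7.3a) to mm10 with Gencode M23 plus a sequence for the H2B-GFP reporter, and deposited unnormalised UMI counts for each of 6794880 whitelist barcodes. The labels name both the V2 and V3 Chromium kits, and the methods the V3 kit.

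From these counts, cells were kept with at least 1500 genes (metaphyseal) or 1000 genes (*Pdgfra-GFP*), at most 15% mitochondrial and 30% ribosomal UMIs. A cell was gated to the marker list with the highest mean rescaled level, if this was at least 0.3, 0.1 above the next list and rested on 3 detected markers. Doublets (25, 18 and 184 cells, called in scanpy 1.11.5) were kept, and an alternative removed them. Called shares were 0.895 to 1.63%, so doublets may remain. Counts were summed over at least 10 cells and tested in edgeR 4.0.16 (quasi-likelihood test, TMM, Benjamini-Hochberg adjustment over 12725 genes, threshold 0.05) with all 38 sums in a single model and the library as a block. EC-like sums of the sorted library were left out of this model. The pairing comes from the suspension of cells that all sums of a library share. For SC-like with mpMSC-like sums, deviations from the population means correlated within libraries at r of 0.0434, 0.0722 and 0.359. On simulated sums for SC-like against mpMSC-like cells over 12163 genes, the test found 65.5% of 200 genes changed 4-fold and called 0.0752% of unchanged genes. The simulated spread was the same for all genes. The changed genes all had higher mpMSC-like levels than *Hey2*, *Dlk1* and *Nrarp*, so the share found does not describe these members. DESeq2 1.42.0 served as an alternative. Intervals are exact at the 95% level, and these and the floors of 3 UMIs cover counting error only. Positions come from Gencode M21 (GRCm38) by gene identifier.

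The members, marker lists and pathway list were chosen with earlier results of these data known. All 9 members were named. From the pathway list, at most 4 genes per comparison with the largest changes past the threshold could be named, and per member the 3 genes most like it. Alternatives changed the size factors, test, low-count filter, block, libraries, doublets, gates, clusters, gene minimum, populations in the fit and adjustment. Leaving out SC-like cells with a UMI of *Rgs5*, *Myh11* or *Higd1b* was added after seeing the data.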

Additional observations from a re-analysis of the deposited data

Results flagged for a closer look

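For *Rbpj* in mural-like relative to mpMSC-like cells, both metaphyseal libraries moved one way and the *Pdgfra-GFP* library the other, with differences of 0.023 and 0.18 on the log2(CPM + 1) scale in metaphyseal replicates 1 and 2 and of -0.38 in the *Pdgfra-GFP* library. The difference between the libraries was not tested. No group held enough libraries to test for a single library far from the others.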

How the results depend on the processing

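Of 65 comparisons of a member that were above the floor, 22 were called, and 10 of these kept their direction and their side of the threshold under every one of the 16 alternatives that gave a value. Over the alternatives, 239 of 291 values of called results kept both, 52 lost the call and 0 changed direction. Among the 571 values of results not called, 26 gained a call and 12 changed direction. Without the replicate block, the fit called 349 genes in SC-like, 1909 in dpMSC-like, 2236 in OB-like and 2560 in chondrocyte-like against mpMSC-like cells, and 452 and 417 in arterial and sinusoidal against capillary cells, where the fit with the block called 783, 3031, 3849, 3913, 919 and 1122. Without the block the adjusted p (edgeR) was 0.167 for *Hey2* and 0.0695 for *Nrarp* in SC-like cells, 0.105 for *Lfng* and 0.178 for *Adam10* in dpMSC-like cells, 0.508 for *Rbpj* in OB-like cells, 0.0739 for *Lfng* and 0.0625 for *Hey2* in mural-like cells and 0.658 for *Rbpj* in EC-like cells, all lost calls, while *Rfng* in EC-like cells was called (0.0257). With each library left out in turn, 181 to 386 genes were called in SC-like, 1289 to 2099 in dpMSC-like, 1666 to 2177 in OB-like, 2094 to 2412 in chondrocyte-like, 681 to 1013 in mural-like and 2541 to 3437 in EC-like cells, and 76 to 1471 in arterial and 104 to 2559 in sinusoidal cells, where a lone library was assumed to vary like the others. Log2 fold changes that changed sign over these ranges, none of them called, were *Rbpj* in SC-like (-0.0081 to 0.29), *Numb* in mural-like (-0.34 to 0.44) and *Rfng* in arterial cells (-0.36 to 1.04). With clusters in place of gates, SC-like sums came from 1 library, 159 genes were called, and signs changed for *Adam10* in SC-like (0.045), *Mfng* in dpMSC-like (-0.43), OB-like (-1.01) and chondrocyte-like (-0.46) and *Rfng* in sinusoidal cells (0.19). With only the populations compared in the fit, 1978 genes were called in chondrocyte-like, 1857 in arterial and 3483 in sinusoidal cells. *Dlk1* in dpMSC-like cells had log2 fold changes of -1.42 by DESeq2, -0.24 without called doublets and -0.50 without the block, and *Numb* in mural-like cells one of -0.0017 without the filter on low counts. The causes were not tested. DESeq2 size factors moved the median of all genes from 0.02 to -0.09 in OB-like, -0.17 to -0.06 in mural-like and -0.0038 to -0.10 in EC-like cells. Depth limits the SC-like and mural-like sums of the metaphyseal libraries most, where a level can rest on 1 UMI.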
